A study of Caenorhabditis elegans with 12 samples.

Results

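The miR-51 family of Caenorhabditis elegans comprises 6 microRNAs, cel-miR-51, cel-miR-52, cel-miR-53, cel-miR-54, cel-miR-55 and cel-miR-56, written below without the species prefix. They were taken by probe name, and all 6 were present among the 114 C. elegans probes of the array, each printed as 3 spots. Each was followed in human alpha-synuclein A53T transgenic worms, in the cat-1 mutant CB1111 (allele e1111), in the pdr-1 mutant VC1024 (allele gk448) and in the wild-type strain N2. The transgenic strain carries the A53T form of human alpha-synuclein, a protein that aggregates in Parkinson's disease. The sources used here give neither the promoter that drives it nor the number of lines used. The gene cat-1 encodes the transporter that packs monoamines such as dopamine into synaptic vesicles, and pdr-1 encodes the worm counterpart of parkin, a ubiquitin ligase mutated in familial Parkinson's disease. Small RNA came from synchronized larval stage 4 worms kept at 20 °C on OP50 bacteria. On each 2-colour array the strain shared the slide with N2, with N2 always in the same dye. The labels give 4 separate worm populations per strain, and the comparison with N2 asks whether each model changes the level of a microRNA.

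MicroRNAs are short RNAs that guide Argonaute proteins to partly complementary sites in messenger RNAs and lower the output of those messages. Target choice rests mainly on the seed near the 5′ end, and the members of the miR-51 family share a seed, so they can act on the same targets. The family is the worm branch of an old animal microRNA family that includes miR-100 of flies and vertebrates. In C. elegans, loss of the whole family is lethal to embryos and leaves the pharynx detached from the mouth, whereas a single member is enough for survival. Reduced family activity also modifies the phenotypes of other microRNA mutants, among them those of let-7 family members, lsy-6 and mir-240 mir-786.

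The gene table of WBcel235, used for names and neighbours only, placed mir-51, mir-52 and mir-53 on chromosome IV and mir-54, mir-55 and mir-56 on chromosome X. The genes mir-51 and mir-53 were separated by 1 entry, and mir-55 and mir-56 were adjacent, with mir-54 close by. Close sequence likeness among members means that a probe may also bind another member's RNA. This was not tested, and the values of single members are uncertain to that extent.

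For cat-1, the files given for replicates 3 and 4 were the same in every value, and they enter once, as replicate 3. That left 11 distinct arrays, 4 for alpha-synuclein A53T, 3 for cat-1 and 4 for pdr-1. Between 13 and 54 C. elegans probes per array gave a ratio, with the fewest on alpha-synuclein replicate 4 (13) and pdr-1 replicate 1 (14). Precision is limited throughout by how few arrays there are. Arrays of a strain often correlated weakly in log2 ratio. In pdr-1, replicates 1 and 4 gave r = -0.56 over 14 shared probes, which makes the sign of pdr-1 changes uncertain. Replicates 3 and 4 gave 0.42 over 31 probes, and the remaining pdr-1 pairs gave 0.04 to 0.19. Weak correlation was not confined to pdr-1. In alpha-synuclein worms r was 0.47 for replicates 1 and 2 and between -0.08 and 0.13 for every other pair. In cat-1 worms it was 0.35 to 0.52. Ratios are given as strain over N2 with the channels in the order of the labels. That order is likely but not stated for the scanner's signal letters, and signs below hold on that reading.

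The miR-51 family was among the readily detected microRNAs. Leaving out 3 of its spots that carried the S flag, a signal was present at 117 of 195 spots (60%), against 22.3% of the spots of the other 108 probes. The microRNA miR-52 had a signal on 10 of the 11 arrays. Both miR-53 and miR-56 had one on 9 arrays, miR-51 and miR-55 on 8, and miR-54 on 7. The other probes had a median of 2 arrays with a signal, and 40 of the 114 had none. A ratio needs both channels, which gave 50 member ratios of a possible 66. Among the 50 microRNAs tested below, ranked by arrays with a ratio, miR-52 had rank 8, and miR-53 and miR-56 had rank 11. The rank was 16 for miR-55 and 23 for both miR-51 and miR-54.

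**Figure D1:**
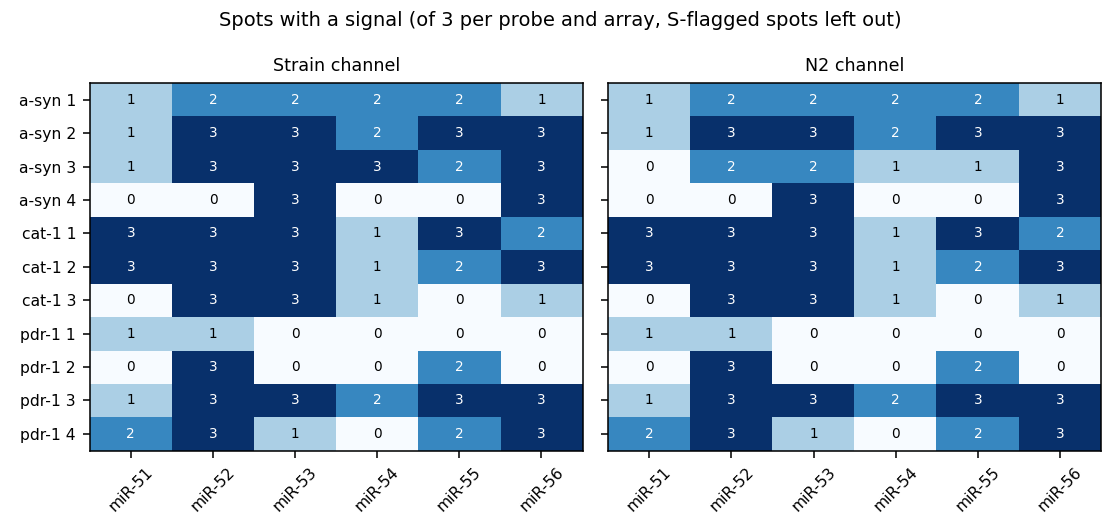
Number of spots, out of 3, with a signal for each member (columns) on each array (rows), in the strain channel (left) and the N2 channel (right); a-syn stands for alpha-synuclein A53T. Both channels hold the same counts except on alpha-synuclein replicate 3, where 6 spots had a strain signal and no N2 signal.

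Missing values differed by array and by member. A strain signal was present at 12 of 32 spots for miR-54 and 13 of 33 for miR-51, against 27 of 32 for miR-52 and 24 of 33 for miR-53. On pdr-1 replicate 4, miR-54 was the member without a signal. Alpha-synuclein replicate 4 showed miR-53 and miR-56 alone, and pdr-1 replicate 1 showed miR-51 and miR-52 alone. On pdr-1 replicate 2, miR-52 and miR-55 were the members with a signal. All 6 members were measured in both channels on alpha-synuclein replicates 1 and 2, cat-1 replicates 1 and 2 and pdr-1 replicate 3. On alpha-synuclein replicate 1, the second of the 3 printed blocks held no member signal and 8 probes with a signal in all, against 47 in the first block and 20 in the third. On alpha-synuclein replicate 3, 6 family spots had a signal in the strain channel alone, among 45 such C. elegans spots on that array, and miR-51 had no N2 signal there.

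As a share of all C. elegans signal in a channel, the family together held 11.8%, 12.7%, 11.2% and 14.2% in alpha-synuclein worms (replicates 1 to 4). Their N2 partners held 10.4%, 12.8%, 12.7% and 13.5%. The ranges overlapped, with strain above N2 on 2 of 4 arrays. The means were 12.5% ± 1.32 in alpha-synuclein worms and 12.4% ± 1.36 in N2 (SD, n = 4 each). These shares and those below sum unlike sets of members and spots, as only spots with a signal count. Members with a signal numbered 2 on alpha-synuclein replicate 4 and on pdr-1 replicates 1 and 2, and 4 on cat-1 replicate 3.

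In cat-1 worms the shares were 11.0%, 15.4% and 14.1%, against 11.8%, 20.3% and 17.9% in N2. The strain was below N2 on each of the 3 arrays, although the ranges overlapped. The means were 13.5% ± 2.24 in cat-1 and 16.7% ± 4.38 in N2 (SD, n = 3 each). Strain and N2 share each array, so these SDs over arrays do not measure the spread of the gap, which was not tested.

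In pdr-1 worms the shares were 8.24%, 12.0%, 12.4% and 19.0%, against 12.7%, 15.5%, 13.3% and 18.1% in N2. The strain was below N2 on replicates 1 to 3 and above it on replicate 4. With replicate 1 turned round it would be below N2 on 2 of 4 arrays, and with replicate 4 turned round on 4 of 4. The means were 12.9% ± 4.47 in pdr-1 and 14.9% ± 2.45 in N2 (SD, n = 4 each). Over all 11 arrays the N2 channel gave 14.5% ± 3.08, between 10.4% and 20.3%. These are whole-worm extracts, in which fewer cells of a type and less RNA per cell cannot be told apart.

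**Figure D2:**
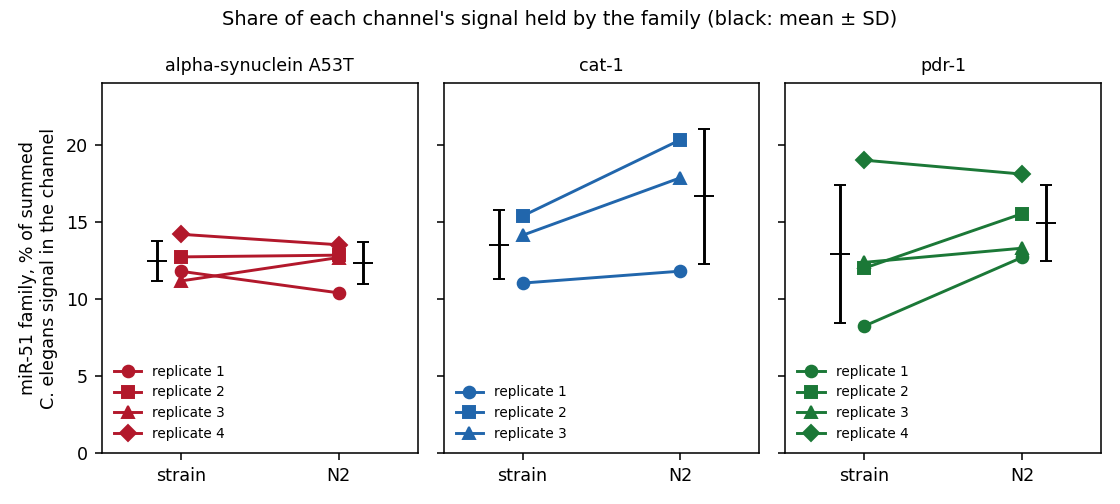
Summed signal of the 6 members as a percent of all C. elegans signal in the channel (vertical axis, from 0), for the strain (left of each panel) and N2 (right); lines join the 2 channels of an array and black bars show mean ± SD. The strain lies below N2 on 3 of 3 cat-1 arrays, on 3 of 4 pdr-1 arrays and on 2 of 4 alpha-synuclein arrays.

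For single members, the share of channel signal was averaged over the arrays with a signal, with N2 pooled over the partners of all 3 strains. A share sums the member's spots with a signal, so the orders that follow set unlike arrays and unlike spot counts side by side. Of the 18 pairs of a member and a strain, 9 lay on the other side of N2 when set against the N2 channel of the strain's own arrays. Of 18 pairs of neighbours in the 6 orders, 17 had overlapping ranges, and 1 differed by more than the larger SD. The pair without overlap sets 1 pdr-1 array of miR-54, which has no SD, beside alpha-synuclein worms. On another scale, log2 signal relative to the 7 probes with both signals on every array, 0 of the 6 orders were the same.

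The microRNA miR-51 held 0.68% ± 0.50 in alpha-synuclein worms (SD, n = 3), 2.35% ± 1.65 in cat-1 (n = 2) and 2.52% ± 1.43 in pdr-1 (n = 3), against 2.09% ± 1.64 in N2 (n = 7). The order from high to low was pdr-1, cat-1, N2 and alpha-synuclein, and each step was smaller than the larger SD. The shares of miR-51 sum 1 spot on each alpha-synuclein array with a signal and 3 spots on each such cat-1 array. For miR-52 the values were 3.34% ± 2.19 in alpha-synuclein (n = 3), 3.46% ± 2.16 in cat-1 (n = 3) and 5.54% ± 2.91 in pdr-1 (n = 4), against 5.03% ± 3.55 in N2 (n = 10). The order was pdr-1, N2, cat-1 and alpha-synuclein, and no neighbours differed beyond their spread. Against its own N2 partners, miR-52 was lower in pdr-1 (5.54% against 7.40%) and higher in alpha-synuclein worms (3.34% against 2.86%), each the opposite of the pooled order. Likewise miR-51 in cat-1 was lower (2.35% against 3.11%).

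For miR-53 the values were 2.48% ± 1.72 in alpha-synuclein (SD, n = 4), 4.27% ± 1.97 in cat-1 (n = 3) and 1.44% ± 0.75 in pdr-1 (n = 2), against 3.93% ± 3.17 in N2 (n = 9). The order was cat-1, N2, alpha-synuclein and pdr-1, again with steps below the larger SD. Against its own N2 partners, miR-53 was lower in cat-1 (4.27% against 6.20%) and close to level in pdr-1 (1.44% against 1.40%). For miR-54 they were 1.42% ± 0.47 in alpha-synuclein (n = 3), 0.76% ± 0.57 in cat-1 (n = 3) and 1.98% on 1 pdr-1 array, against 0.81% ± 0.42 in N2 (n = 7). The order was pdr-1, alpha-synuclein, N2 and cat-1. The step between alpha-synuclein worms and N2 was the one that exceeded the larger SD, and their ranges overlapped. That step sets unlike spot counts side by side, with 2, 2 and 3 spots of miR-54 in alpha-synuclein worms (replicates 1 to 3). Their N2 partners had 2, 2 and 1, those of cat-1 had 1 each, and that of pdr-1 replicate 3 had 2.

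For miR-55 the values were 1.98% ± 0.69 in alpha-synuclein (SD, n = 3), 1.42% ± 0.91 in cat-1 (n = 2) and 2.77% ± 0.19 in pdr-1 (n = 3), against 2.10% ± 0.87 in N2 (n = 8). The order was pdr-1, N2, alpha-synuclein and cat-1. For miR-56 they were 4.44% ± 3.72 in alpha-synuclein (n = 4), 2.51% ± 2.92 in cat-1 (n = 3) and 4.35% ± 2.61 in pdr-1 (n = 2), against 4.05% ± 2.18 in N2 (n = 9). The order was alpha-synuclein, pdr-1, N2 and cat-1, and in both microRNAs neighbours differed by less than the larger SD. Against their own N2 partners, pdr-1 worms had less miR-56 (4.35% against 5.55%) and nearly the same miR-55 (2.77% against 2.81%), and cat-1 worms had more miR-55 (1.42% against 1.18%). For miR-54, cat-1 gave 0.76% against 0.70%.

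The direct comparison used the ratio of the 2 channels on each array. Before normalization, the median log2 ratio of all C. elegans spots ranged from -0.18 on alpha-synuclein replicate 1 to 4.57 on alpha-synuclein replicate 3. The members moved with it. On alpha-synuclein replicate 3 their ratios as deposited lay between 3.39 (miR-52) and 5.53 (miR-54), and on cat-1 replicate 3 between -0.36 (miR-56) and 0.42 (miR-54). After loess within each array, the member ratios lay between -1.38 and 1.17 over all arrays. Every ratio below is after loess and is therefore relative to the other C. elegans microRNAs of its array.

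**Figure D3:**
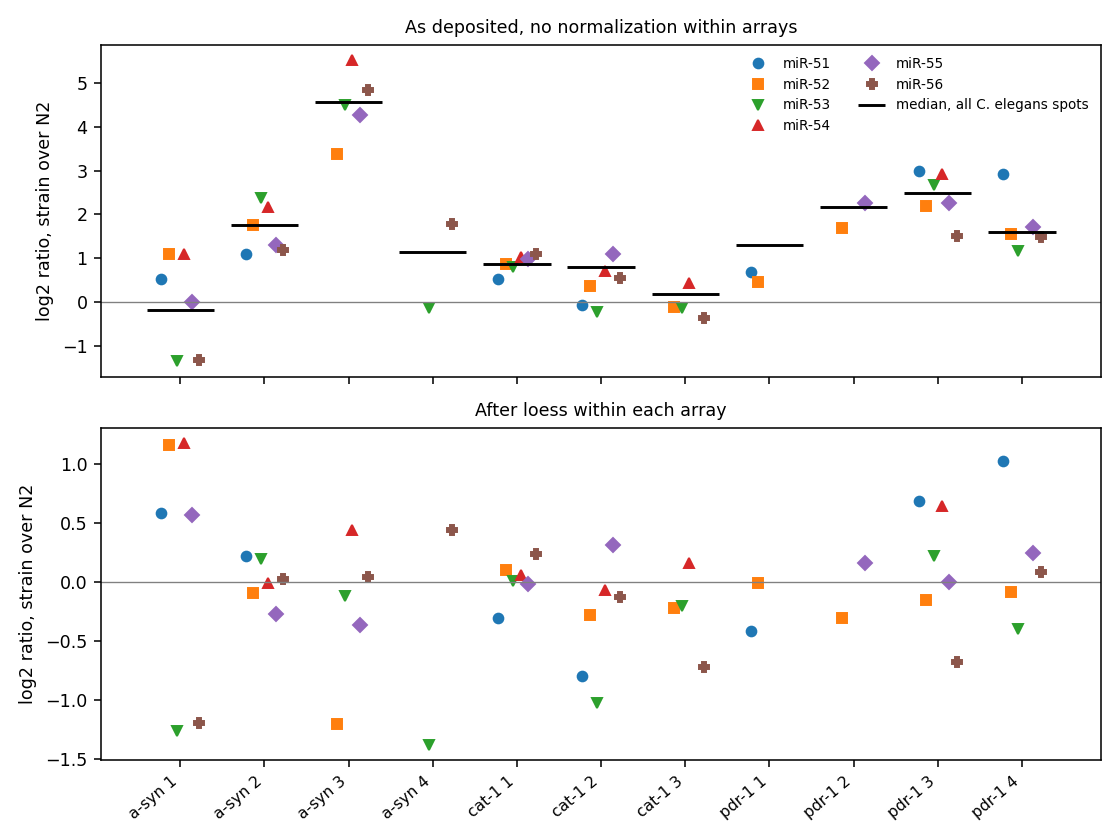
Log2 ratio of strain over N2 for each member on each array, as deposited (top) and after loess (bottom); black lines mark the median of all C. elegans spots, and the 2 panels have different vertical scales. As deposited, alpha-synuclein replicate 3 sits near 4.57 and the members follow each array's median, while after loess they lie on both sides of 0.

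In alpha-synuclein A53T worms, none of the 6 members passed the test against N2 (limma, Benjamini-Hochberg adjusted p of 0.234 to 0.951). Among all 50 microRNAs tested, 10% (5) were called. That count was 0 without alpha-synuclein replicate 1 (limma, 7 at an unadjusted p under 0.05), 1 without replicate 2, 2 without cat-1 replicate 2 or pdr-1 replicate 3 and 3 or 5 without any other array. The median log2 change was -0.04 over the members and 0.14 over all tested, with 2 members above 0 and 4 below. At an unadjusted p under 0.05 there was 1 member, miR-53, among 10 microRNAs of the 50 tested.

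For miR-53 the log2 ratios were -1.26, 0.19, -0.12 and -1.38 on alpha-synuclein replicates 1 to 4. Replicates 1 and 4 were low and the others near 0, with 3 of 4 below 0. In share of channel signal, miR-53 held 0.41%, 1.79%, 3.46% and 4.25% in alpha-synuclein worms, against 0.90%, 1.01%, 3.83% and 8.18% in N2. The mean log2 change was -0.64 ± 0.32 (SE, n = 4), with a 95% interval of -1.28 to -0.01 (limma adjusted p = 0.234). It therefore did not pass the threshold. With the strain fitted alone the SE was 0.40 (limma adjusted p = 0.575). Leaving out 1 alpha-synuclein array put the change between -0.92 (without replicate 2) and -0.40 (without replicate 4). The deposited table gave -0.21. With no normalization within arrays it was 1.34, where the median over all tested microRNAs was 1.84.

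For miR-54 the ratios were 1.17, -0.01 and 0.44 on replicates 1 to 3. Replicates 1 and 3 were above 0, with replicate 1 the highest, and its mean was the highest of the family in this strain. The mean was 0.53 ± 0.37 (SE, n = 3), with an interval of -0.20 to 1.27 (limma adjusted p = 0.409). With the ratios of the authors' deposited table in place of loess, miR-54 was called higher (1.20, limma adjusted p = 0.00953). One of that table's alpha-synuclein columns does not match its scanner file, and with the matched columns the change was 1.10 on 2 arrays (limma adjusted p = 0.145). Median centring gave 0.88 and centring on summed signals 0.96 (adjusted p = 0.117 and 0.0820). With no normalization within arrays it was also called (2.93, adjusted p = 0.0309), where the median over all tested microRNAs was 1.84.

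The other members showed no common direction in alpha-synuclein worms. For miR-51 the ratios were 0.58 and 0.22 on replicates 1 and 2, each from 1 spot and both above 0, with a mean of 0.40 ± 0.45 (SE). For miR-52 they were 1.15, -0.09 and -1.20 on replicates 1 to 3, the widest spread of any member in this strain, with a mean of -0.05 ± 0.37. Its 3 arrays thus lay high, near 0 and low.

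For miR-55 the ratios were 0.56, -0.27 and -0.37, with replicate 1 above 0 and a mean of -0.03 ± 0.37 (SE). For miR-56 they were -1.19, 0.03, 0.04 and 0.44, with replicate 1 low and the other 3 above 0. Its mean was -0.17 ± 0.32 (SE, n = 4), with an interval of -0.81 to 0.46. On replicate 1, miR-54 and miR-55 thus lay above 0 and miR-56, encoded in the same cluster, below it, from 1 spot.

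In cat-1 worms, none of the 6 members passed the test against N2 (limma adjusted p of 0.976 for all 6), and 0% of the 48 tested microRNAs were called. At an unadjusted p under 0.05 there were 0 members among 4 microRNAs. The median log2 change was -0.17 over the members, 4 of which were below 0, and 0.08 over all tested.

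For miR-51 in cat-1 the ratios were -0.30 and -0.80 on replicates 1 and 2, both below 0. The mean was -0.55 ± 0.45 (SE, n = 2), with an interval of -1.44 to 0.35, the lowest of the family in this strain. For miR-53 the ratios were 0.00, -1.02 and -0.21, with replicate 2 far below the others. Its mean was -0.41 ± 0.37 (SE, n = 3), with an interval of -1.14 to 0.32.

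The ratios of miR-52 were 0.10, -0.28 and -0.22, with a mean of -0.13 ± 0.37 (SE). Those of miR-54 were 0.06, -0.07 and 0.16, each from 1 spot, with a mean of 0.05 ± 0.37. Both thus stayed between -0.28 and 0.16 on the cat-1 arrays. For miR-55 the ratios were -0.02 and 0.31, with a mean of 0.15 ± 0.45. For miR-56 they were 0.24, -0.13 and -0.72, with a mean of -0.20 ± 0.37, and replicate 3, the lowest, rested on 1 spot. Blank spots of cat-1 arrays also gave some signal, on 15 to 18 of 1059 per array, against 0 to 3 on the other arrays; what this did to member values was not tested.

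In pdr-1 worms, none of the 6 members passed the test against N2 (limma adjusted p of 0.902 to 0.947), and 0% of the 48 tested microRNAs were called. At an unadjusted p under 0.05 there were 0 members among 2 microRNAs. The median log2 change was 0.03 over the members, with 3 above 0 and 3 below, and -0.0034 over all tested.

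For miR-52 the ratios were -0.01, -0.30, -0.15 and -0.08 on pdr-1 replicates 1 to 4. All 4 were below 0 and within a narrow range, with a mean of -0.14 ± 0.32 (SE, n = 4) and an interval of -0.77 to 0.50. In share of channel signal, miR-52 held 5.06%, 9.39%, 2.32% and 5.40% in pdr-1, against 8.25%, 13.1%, 2.56% and 5.72% in N2. The strain was thus below N2 on each array on that scale too.

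For miR-55 the ratios were 0.16, 0.00 and 0.25 on replicates 2 to 4, all at or above 0, with a mean of 0.14 ± 0.37 (SE, n = 3). For miR-51 they were -0.42, 0.69 and 1.02 on replicates 1, 3 and 4, with 1 spot each on replicates 1 and 3. Replicate 1 was below 0 and the other arrays well above, with a mean of 0.43 ± 0.37 (SE, n = 3) and an interval of -0.30 to 1.16.

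The remaining members rested on fewer arrays. For miR-53 the ratios were 0.22 and -0.40 on replicates 3 and 4, and for miR-56 -0.68 and 0.08. Each had 1 array on either side of 0, with means of -0.09 ± 0.45 and -0.30 ± 0.45 (SE). For miR-54, replicate 3 alone gave a ratio, 0.64, so there is no replicate check of it in pdr-1.

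Since replicates 1 and 4 of pdr-1 oppose each other, the values were also computed with either turned round. Turning replicate 1 left miR-51 at 0.71 (limma adjusted p = 0.668) and miR-52 at -0.13. Turning replicate 4 put miR-51 at -0.25, miR-53 at 0.31 and miR-55 at -0.03, each with the opposite sign, and miR-52 at -0.10 and miR-56 at -0.38. No member was called either way. With replicate 4 left out instead, miR-51 was 0.13 (2 arrays), miR-55 was 0.083 (2 arrays) and miR-53, on 1 array, was 0.22, so leaving it out changed the sign of miR-53 among these 3.

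**Figure D4:**
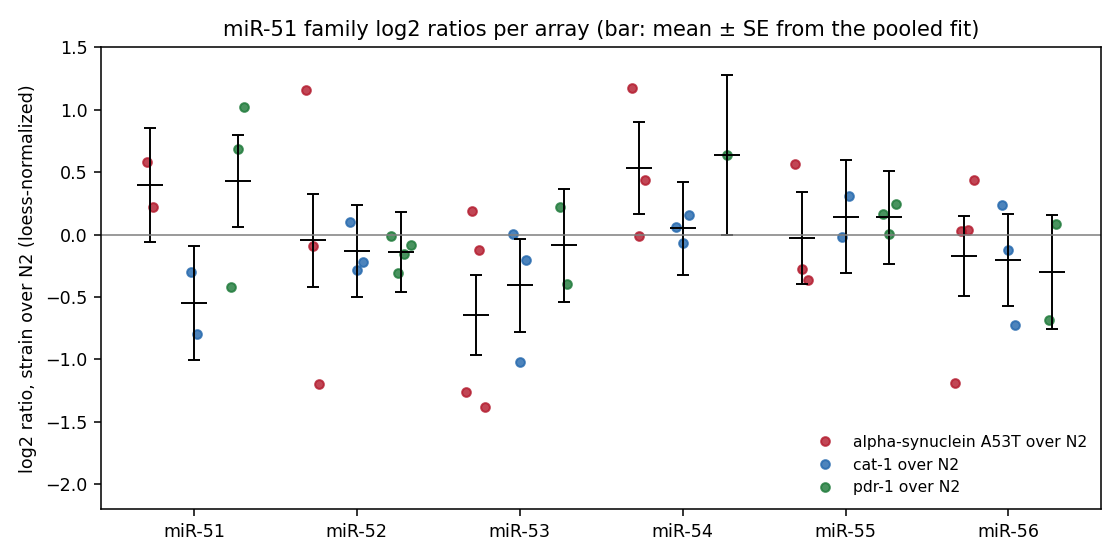
Loess-normalized log2 ratio of strain over N2 for each member; points are arrays (red alpha-synuclein A53T, blue cat-1, green pdr-1) and black bars show the mean ± SE of the pooled fit. The points of alpha-synuclein worms spread from -1.38 to 1.17, and those of cat-1 from -1.02 to 0.31.

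The spread between arrays differed by strain. Over all tested microRNAs the residual SD of log2 ratios was 0.81 in alpha-synuclein, 0.38 in cat-1 and 0.47 in pdr-1, while the fit used 1 SD of 0.64 for every strain. Between spots of one member on one array, the median SD of log2 ratios before loess was 0.32 in alpha-synuclein, 0.12 in cat-1 and 0.26 in pdr-1. The highest were 1.45, 0.70 and 0.62. These spot SDs are another measure than the residual SD, on other microRNAs and before loess, so they are not compared with it.

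Between strains, none of the 6 members passed the test in any of 3 contrasts. The shares called among all tested microRNAs were 0% for alpha-synuclein minus cat-1, 2.08% for alpha-synuclein minus pdr-1 and 0% for cat-1 minus pdr-1. Adjusted p-values of the members were 0.870 to 0.958, 0.901 to 0.985 and 0.989 to 0.992 in these contrasts (limma). At an unadjusted p under 0.05 there were 0 members in each.

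The widest differences were those of miR-51, several of whose ratios came from 1 spot. Its change was 0.95 higher in alpha-synuclein than in cat-1 worms, with a 95% interval of -0.32 to 2.22 on 4 arrays. In cat-1 minus pdr-1 it was -0.98, with an interval of -2.13 to 0.18 on 5 arrays. With pdr-1 replicate 1 turned round that difference was -1.26 (limma adjusted p = 0.732), and with replicate 4 turned round it was -0.30. Between alpha-synuclein and pdr-1 it was -0.03, with an interval of -1.19 to 1.13.

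Intervals for the other members were about as wide. For miR-52, whose arrays are the most numerous, cat-1 minus pdr-1 was 0.01 with an interval of -0.96 to 0.97. For miR-53, alpha-synuclein minus pdr-1 was -0.56 with an interval of -1.65 to 0.54, and with pdr-1 replicate 4 turned round it was -0.95. For miR-54, alpha-synuclein minus cat-1 was 0.48 with an interval of -0.55 to 1.52. Each of these intervals includes 0.

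**Figure D5:**
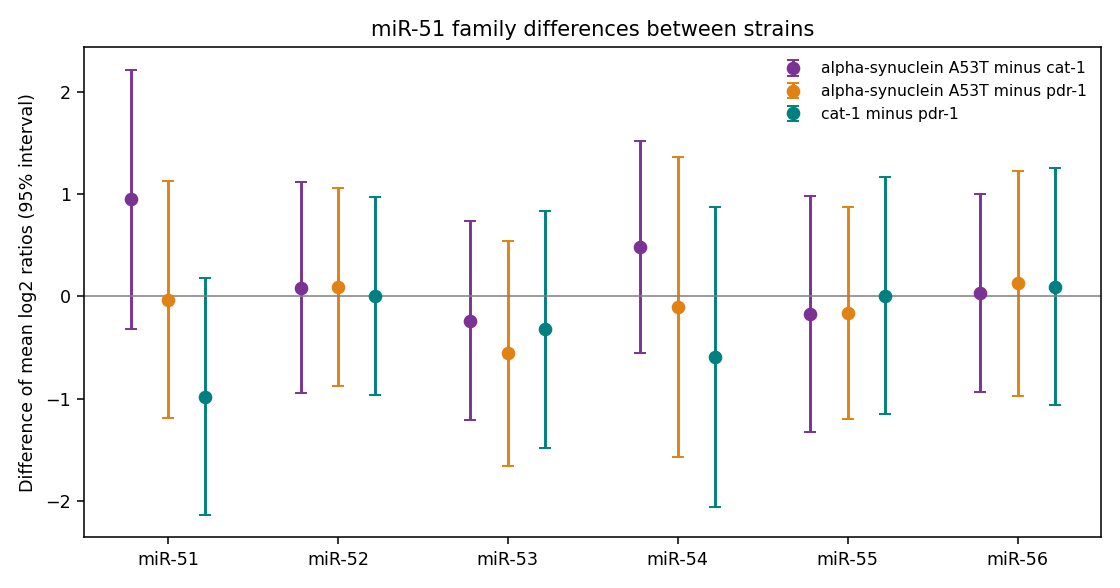
Difference between strains in the mean log2 ratio of each member, with 95% intervals from the pooled limma fit (vertical axis, log2 units). All 18 intervals include 0, and the points farthest from it are those of miR-51, at 0.95 for alpha-synuclein A53T minus cat-1 and at -0.98 for cat-1 minus pdr-1.

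The spread of members within an array varied. The gap between the highest and the lowest member was 2.44 on alpha-synuclein replicate 1, where miR-54 and miR-53 lay at the ends, and 0.41 on pdr-1 replicate 1, where 2 members were measured. With all 6 measured, it was 0.49 on alpha-synuclein replicate 2 and 0.54 on cat-1 replicate 1. The SD over members was below that over all tested microRNAs on 8 of 11 arrays, as on alpha-synuclein replicate 2 (0.18 against 0.73), and above it on alpha-synuclein replicate 4, cat-1 replicate 2 and pdr-1 replicate 4. Over the 15 pairs of members, the root mean square difference of log2 ratios ran from 0.46 for miR-51 and miR-54 (5 arrays) to 1.09 for miR-54 and miR-56 (7 arrays), with a median of 0.78.

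The 3 pairs within the mir-54, mir-55 and mir-56 cluster covered much of that span, from 0.52 for miR-54 and miR-55 to 1.09 for miR-54 and miR-56. Against the mean of the other members, miR-55 was nearest (0.39 over 8 arrays), while miR-53 (0.91) and miR-56 (0.92) were farthest, each over 9 arrays.

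Of 18 other microRNAs with a ratio on at least 8 arrays shared with the family, those whose ratios were most like the members' mean were miR-57 (root mean square difference 0.341, 8 arrays), miR-81 (0.482, 8 arrays) and miR-63 (0.495, 11 arrays). The median over the 18 was 0.636, and let-7 was farthest at 1.19. The points share arrays and the loess step, so the likeness is a description.

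Of 7 microRNAs whose mutants interact genetically with the family, 6 were on the array and 4 were tested. In alpha-synuclein worms 2 of the 4 were called lower, where 10% of all tested microRNAs were called. The timing microRNA let-7 changed by -1.80 ± 0.37 (SE, n = 3, limma adjusted p = 0.00011), and its relative miR-48 by -0.94 ± 0.32 (n = 4, adjusted p = 0.0457). Under 30 alternatives, let-7 was called lower in 24 and miR-48 in 12. Those that left out or turned a cat-1 or pdr-1 array kept the same changes and altered the test alone. With no normalization the changes were 0.19 for let-7 and 0.63 for miR-48 (all tested 1.84), and with dye controls 0.51 and 1.26 (all tested 2.34). The plain test per probe called neither (adjusted p = 0.145 and 0.201). With the strain fitted alone, the limma adjusted p was 0.00997 for let-7 and 0.249 for miR-48. Without alpha-synuclein replicate 1 the adjusted p was 0.0840 for let-7 (-1.76) and 0.304 for miR-48 (-0.92), and without replicate 2 it was 0.0781 for both (-1.21 and -1.12). Without replicate 4, miR-48 was at -0.57 (adjusted p = 0.395). The others, miR-84 and miR-241, had changes of -0.99 (adjusted p = 0.0604) and -0.63 (adjusted p = 0.327).

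In cat-1 and pdr-1 worms 0 of the 4 were called. The taste-neuron microRNA lsy-6 and miR-240 gave no signal on any array, and no probe carried the name miR-786. The miR-35 family, abundant in embryos, had a signal on 0 to 2 arrays for each of its 8 probes, and 0 were tested.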

How the data were processed

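Small RNA of each strain and of N2 was labelled with 2 dyes and hybridised to NCode arrays, with no dye swap, per the labels. The deposited scanner files give a signal intensity and a flag per channel for 4608 spots, per the file headers, with no background column. The sources used here do not say how the authors corrected background or what the flags mean. A signal above 0 was taken as detected. Channel order in the labels was the basis for reading signal B as the strain. Log2 ratios make up the authors' deposited table, each of signal B over signal A. In 10 of its 12 columns these equal the scanner log2 ratio centred on the ratio of summed signals. The columns of alpha-synuclein replicate 2 and cat-1 replicate 4 do not match their own scanner files, so their scale and centring stay unknown. Column medians were 0.07, 0.27, -0.06 and 0.40 in alpha-synuclein, -0.03, 0.08, 0.03 and 0.13 in cat-1 and 0.20, 0.05, 0.19 and -0.03 in pdr-1 (replicates 1 to 4).

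S-flagged spots did not enter. Log2 ratios were normalized by loess on C. elegans spots within each array (span 0.3, 4 iterations), and spots of a probe were averaged. Probes with a signal on at least 4 of the 11 arrays (50) were fitted together in R 4.3.3 with limma 3.58.1, with 1 mean per strain. Prior degrees of freedom were infinite, so 1 SD of 0.64 served all probes. Tests were two-sided, with Benjamini-Hochberg adjustment over all probes of a comparison at 0.05. The test of a strain's ratio against 0 uses its own N2 partner on each array. The limma step was tested on simulated log2 ratios with the same SD in every strain. That does not check the loess, flag and filter steps, or a spread that differs by strain. Planned fits named 12 arrays, and the repeated cat-1 file left 11.

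The members and lists were chosen with earlier results of these data known. All 6 members are named, with the microRNAs of the genetically interacting pathways and the 3 most alike microRNAs over at least 8 arrays; let-7 was added to the last as the farthest. Alternatives covered normalization, filters, flags, spot averaging, models, a replicate block, turned pdr-1 arrays, leaving out each array and using the deposited table. Scanner background and slide were not available as alternatives, as the files hold no such columns.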

Additional observations from a re-analysis of the deposited data

How the results depend on the processing

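Over 1068 recomputed member changes, 2 were called. Of the 1068, 117 had the opposite sign to the value given, 29 of them among the 393 with 1 array left out. These totals include values that could not change, as when the array left out belonged to a strain outside the comparison. Removing the filter, fitting a comparison's strains alone and the plain test per probe also kept each change, with 0 of 36 signs changed in each. With no normalization 17 of 36 changed, and with dye controls 18 of 36. No member was called in the values given, so a sign change with both values called could not occur. Both calls were of miR-54 in alpha-synuclein worms: 1 member was called with no normalization within arrays and 1 with the deposited table, and 0 with its matched columns only, an alternative added after seeing the data, where miR-54 was 1.10 on 2 arrays against 1.20 on 3. With no normalization, the family medians were 1.74 in alpha-synuclein, 0.40 in cat-1 and 2.00 in pdr-1 (all tested microRNAs 1.84, 0.78 and 2.08), 1.20 for alpha-synuclein minus cat-1 and -1.44 for cat-1 minus pdr-1. Centring on dye control spots, which cat-1 replicate 3 lacks so that it dropped out, gave 2.21, 1.74 and 2.05 (all tested 2.34, 1.76 and 2.22), and 0.54 and -0.39 for these contrasts. Requiring a signal on at least 8 arrays left 0.0052 for cat-1 minus pdr-1, and the matched columns of the deposited table gave 0.37 for alpha-synuclein minus pdr-1. Leaving out 1 array, the median ranged from -0.34 to -0.047 in cat-1 and from -0.33 to -0.059 for cat-1 minus pdr-1, the lowest of each without cat-1 replicate 1. It ranged from -0.08 to 0.27 in alpha-synuclein, from 0.02 to 0.11 in pdr-1, from -0.05 to 0.27 for alpha-synuclein minus cat-1 and from -0.39 to 0.09 for alpha-synuclein minus pdr-1. Replicate numbers did not pair the samples: deviations of same-numbered arrays correlated at -0.78 to 0.12 over 10 pairs, 1 of them above 0.1, and 0 of 11 arrays were closest to one of their own number. With the replicate block the cat-1 median was -0.0087, no member was called, and 3 of 32 microRNAs that could be fitted were called in alpha-synuclein, against 5 of 50 without it. That count was 18 with no normalization, 8 and 7 with median and summed-signal centring, 4 with the deposited table, 1 with that strain fitted alone or with scale normalization, and 0 with dye controls, the plain test per probe or the matched columns (27, 4 and 8 at an unadjusted p under 0.05). The order of levels over conditions was the same on the log2 scale for 0 of 6 members. The causes were not tested, and the 50 ratios measured of 66 possible limit what these arrays can show.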

Other observations

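The authors' deposited table holds a cat-1 replicate 4 column that does not match its own scanner file. It enters only the fits above that use the whole deposited table. In that column of the authors' deposited table, miR-52 had a mean log2 ratio of -0.03 (2 spots), miR-53 -0.03 (3 spots), miR-54 0.18 (2 spots) and miR-55 0.11 (2 spots), and miR-51 and miR-56 had no value. The array also carries a probe for miR-56*, the opposite arm of the mir-56 precursor, which had a signal at 1 of 33 spots, in the N2 channel of cat-1 replicate 3.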
